A study of Mus musculus with 18 samples.

Results

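The 43 protein-coding collagen chain genes in a count table of 21995 genes, of which 16656 are protein-coding, were followed through retinoic acid differentiation of mouse embryonic stem cells (ESCs). They were taken by symbol, as every protein-coding gene named Col, a number, the letter a and a number. They were divided by the known architecture of their products into 11 fibrillar chains, 8 chains of the basement membrane class (6 of type IV, with Col15a1 and Col18a1) and 24 others. Libraries of 6 groups, 3 in each, were compared: Oct1 cKO ESCs at day 0, day 2 and day 6 and Parental ESCs at day 0, day 2 and day 6. Day 0 cells were undifferentiated, and the later cells had been kept for 2 or 6 days with 1.5 ug/ml retinoic acid on 0.01% gelatin. Oct1 is the product of Pou2f1, a POU-domain transcription factor that binds the octamer motif. The labels do not say how the allele was deleted, how many clones were used or whether replicate libraries stem from different cultures. The p-values therefore weigh differences between groups only against the spread of replicate libraries, and that spread may be technical.

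Collagens are secreted or membrane-bound proteins in which 3 chains wind into a triple helix, and each chain has its own gene. Fibrillar chains (types I, II, III, V, XI, XXIV and XXVII) pack into the cable-like fibrils of connective tissue, and type IV chains form the sheet-like network of basement membranes. Type VI chains form beaded filaments, FACIT chains (types IX, XII, XIV and relatives) decorate fibrils, and others span the cell membrane or form anchoring fibrils and hexagonal lattices. In early mouse embryos mesenchyme is a main source of fibrillar chains, whereas parietal endoderm lays down Reichert's membrane, a thick basement membrane rich in type IV collagen.

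Levels are given as CPM, counts scaled to a library's total and its TMM factor, with one value per library in the order of replicates 1, 2 and 3. Differences are log2 fold changes with their standard error (SE) from the edgeR quasi-likelihood test, and a gene was called at an adjusted p (Benjamini-Hochberg over 18352 tested genes) under 0.05. The marker chains Col1a1, Col3a1, Col4a1 and Col6a2 had counts in every library. Of the 43 chains 40 passed the filter on low counts. Col4a3, Col10a1 and Col28a1 did not, and none of these held more than 12 counts in any library. Total counts ran from 13694126 to 19296966 per library. In bulk RNA, fewer cells of a type and less RNA per cell cannot be told apart.

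Several features of the whole libraries stand beside the collagen results. Pou2f1 had 87.2, 88.2 and 62.4 CPM in cKO and 135, 124 and 127 CPM in Parental libraries at day 0. Its log2 fold changes over the 3 days, -0.70 ± 0.10, -0.78 ± 0.10 and -0.60 ± 0.11, were all called, so its transcript was lower but still present. Counts over the whole gene do not show which exons remained. Replicate 3 of cKO day 0 stood apart: its counts differed from those of replicates 1 and 2 by a chi-square of 12.002 and 11.6 per degree of freedom, against 1.24 between those replicates and 1.77 to 7.47 within the other groups. Genes of chromosome 11, which holds Col1a1 and Col23a1, had a median log2 fold change of -0.38, -0.37 and -0.39 at days 0, 2 and 6 over 974 genes at a mean of 5 CPM or more, whereas the medians of the other autosomes lay between -0.06 and 0.17. Shares of all tested genes called higher and lower in cKO cells were 26.4% and 27% at day 0, 33.7% and 33.6% at day 2, and 36.7% and 37.8% at day 6. Of 12 fibroblast markers (Pdgfra, Pdgfrb, Dcn, Postn and others), a list drawn up for feeder fibroblasts, 2 were called higher and 8 lower in cKO cells at day 0. Whether feeder cells contributed RNA to the day 0 libraries was not tested. At day 2, 3 of these markers were higher and 4 lower, near the shares of all genes. At day 6, 1 of these markers was higher and 9 were lower. Their summed level was 149.9 to 157 CPM in cKO libraries and 400.0 to 409 CPM in Parental libraries at day 0, 103 to 117 CPM in cKO libraries and 99.96 to 113 CPM in Parental libraries at day 2, which overlap, and 297 to 325 CPM in cKO libraries and 711 to 727 CPM in Parental libraries at day 6, and none of the 12 was at 0 in all libraries of a group. Of 12 parietal endoderm markers (Sparc, Lama1, Sox7, Gata6 and others) 9 were higher and 3 lower in cKO cells at day 6, with sums of 14302 to 15394 CPM in cKO libraries and 9932 to 10264 CPM in Parental libraries. Visceral endoderm markers summed to 735 to 848 CPM in cKO and 334 to 364 CPM in Parental day 6 libraries, and 8 smooth and striated muscle markers to 244 to 341 CPM in cKO and 909 to 1206 CPM in Parental ones. Of the 7 muscle markers tested, 2 were called higher and 5 lower in cKO cells at day 6. At day 6 the endothelial list had 6 of 7 tested genes higher and 1 lower in cKO cells, and the neuronal list 2 and 4 of 6. The neural crest list had 1 and 4 of 7, the cartilage and bone list 1 and 1 of 4, and the pluripotency list 6 and 1 of 8. With so few genes, the muscle and neuronal counts higher and the cartilage and bone counts are near the shares of all genes. At day 2 all 8 pluripotency markers were higher, with sums of 2671 to 2812 CPM in cKO libraries and 1174 to 1230.2 CPM in Parental libraries. In the neural crest list none was higher and 4 of 7 were lower at day 2 by the edgeR test, the other 3 not being called, with sums of 27.8 to 31.2 CPM in cKO libraries and 62.9 to 67.4 CPM in Parental libraries. The part of these marker genes, of the chromosome 11 shift and of the deviating library in the collagen results was not tested.

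Most collagen chains were lower in Oct1 cKO cells at every day, and an exception was the Col4a1 and Col4a2 pair of the basement membrane, which was higher from day 2 on. At day 0, 2 of the 43 chains were called higher and 30 lower, when 26.4% of all tested genes were called higher and 27% lower. At day 2 the counts were 7 higher and 25 lower (all genes, 33.7% and 33.6%), and at day 6 they were 8 higher and 29 lower (36.7% and 37.8%). Over the 40 tested chains the median log2 fold changes were -0.98, -0.54 and -2.20 for days 0, 2 and 6, while that of all tested genes was 0 at days 0 and 6 and -0.01 at day 2. Placing Col6a5, which had no count in cKO cells at day 6, at the bound its zero allows moved the day 6 median to -2.19. Without the deviating cKO day 0 library the day 0 counts were again 2 higher and 30 lower.

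The classes followed this pattern to different degrees. Of the 11 fibrillar chains 1 was higher and 10 were lower at day 0 and again at day 2, and 2 were higher and 9 lower at day 6. Col5a3 was the higher chain at each day, joined at day 6 by Col27a1. Of the 8 basement membrane chains 1 was higher (Col18a1) and 5 lower at day 0, and 2 were higher (Col4a1 and Col4a2) and 5 lower at days 2 and 6. Of the 24 other chains none was higher and 15 were lower at day 0 by this edgeR test, where 7 tested chains were not called. At day 2, 4 others were higher (Col6a5, Col9a2, Col13a1 and Col17a1) and 10 lower, and at day 6, 4 were higher (Col8a1, Col17a1, Col20a1 and Col23a1) and 15 lower. Col5a3 was thus the 1 chain called higher at all 3 days. The all-gene shares called higher and lower were 26.4% and 27% at day 0, 33.7% and 33.6% at day 2, and 36.7% and 37.8% at day 6. With so few chains, 2 of 7 tested basement membrane chains higher at days 2 and 6 is near those shares. In the other class, 10 of 22 tested chains lower at day 2 is not far above that of all genes.

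**Figure D1:**
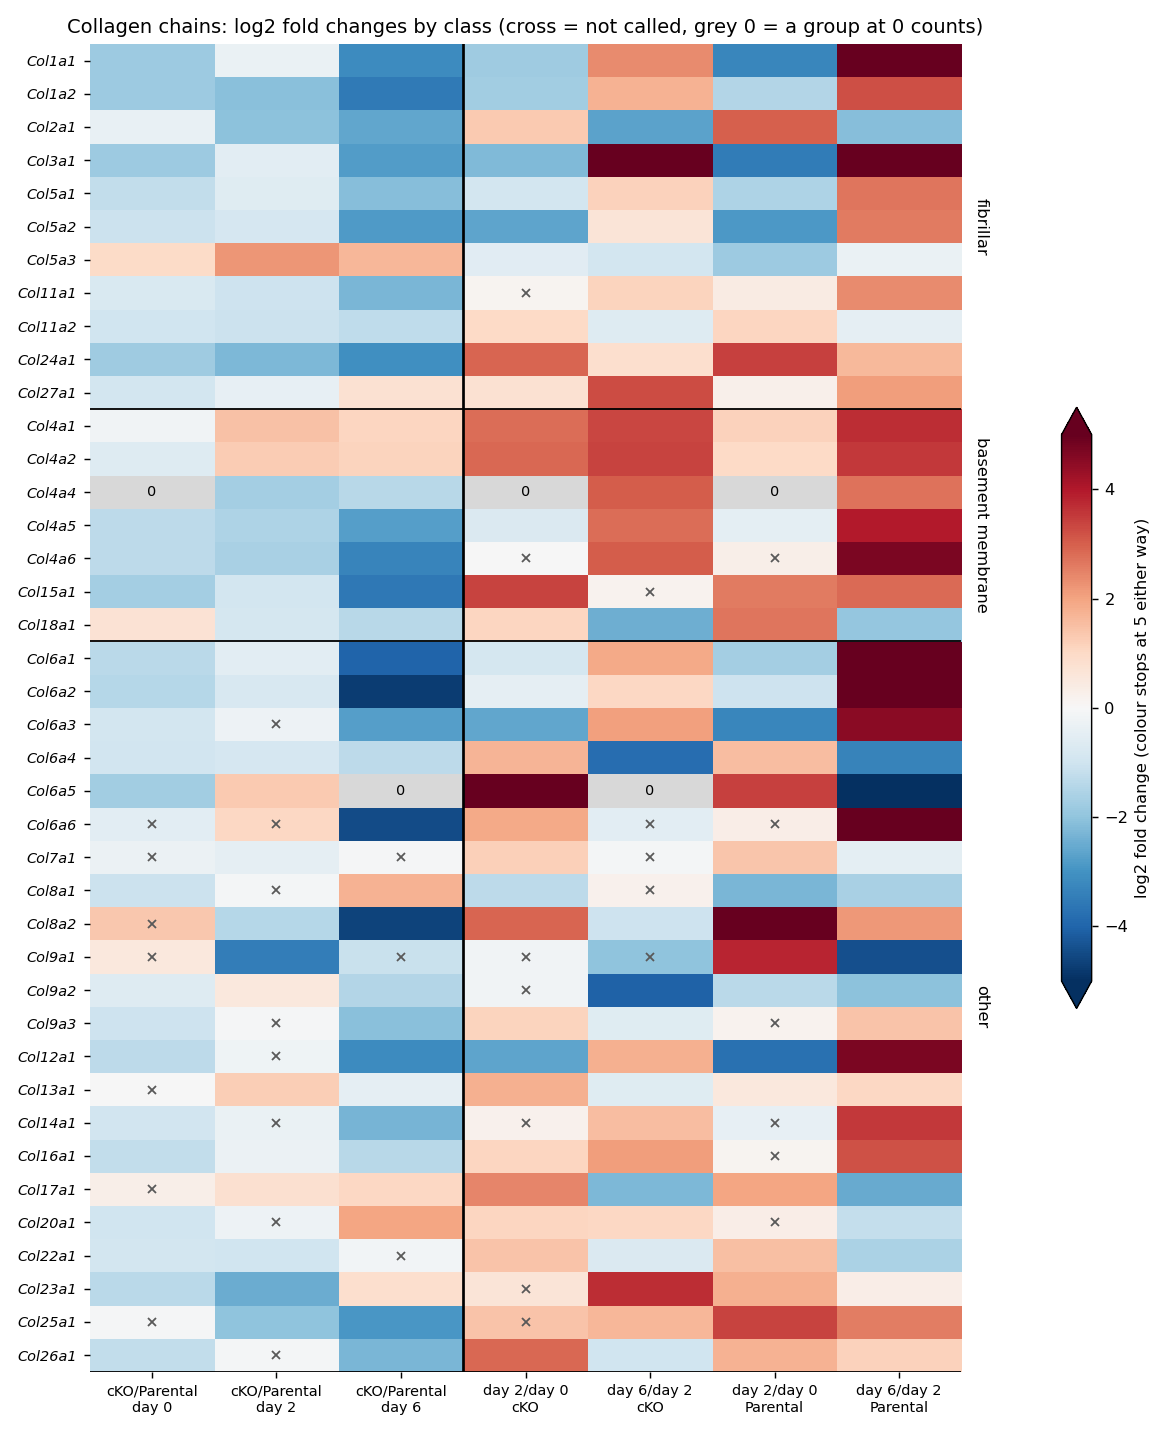
Log2 fold changes of the 40 tested collagen chains (rows, grouped as fibrillar, basement membrane and other) in the cKO against Parental comparison at days 0, 2 and 6 and for each day step within cKO and within Parental cells (columns). Red is higher and blue lower, a cross marks a chain that was not called, and a grey cell with 0 marks a comparison in which a group had no count; the fibrillar rows are mostly blue in the 3 genotype columns, with Col5a3 red throughout and Col4a1 and Col4a2 red at days 2 and 6.

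Summed over chains, the fibrillar class was lower in cKO cells at each day. The basement membrane class was higher at day 6 and, only with Col18a1 included, at day 0. At day 6 the fibrillar sum was 685, 682 and 572 CPM in cKO libraries and 4459, 4243 and 4587 CPM in Parental libraries. Fibrillar sums averaged 410.4 ± 8.54 CPM in cKO and 1125 ± 41.7 CPM in Parental cells at day 0, and 178 ± 9.8 CPM in cKO and 331 ± 16.5 CPM in Parental cells at day 2 (SD, n = 3 each, as for all sums here). No cKO library reached the lowest Parental library of its day. The basement membrane sum reached 14027, 15152 and 14637 CPM in cKO libraries and 7284, 7343 and 7353 CPM in Parental libraries at day 6. It averaged 575 ± 4.27 CPM in cKO and 495 ± 11.8 CPM in Parental cells at day 0. There Col18a1 averaged 367 CPM in cKO and 223 CPM in Parental cells. The type IV chains went the other way at day 0, with 208 ± 9.77 CPM in cKO and 272 ± 7.97 CPM in Parental cells. At day 2 the basement membrane sum averaged 2195 ± 103 CPM in cKO and 1984 ± 101 CPM in Parental cells. The order of the day 2 means flipped with library sizes alone, at 2270.2 CPM in cKO and 2345 CPM in Parental cells. The other chains summed to 175 ± 9.28 CPM in cKO and 1340.1 ± 98.6 CPM in Parental cells at day 6. These sums are dominated by the highest chains and carry no test.

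**Figure D2:**
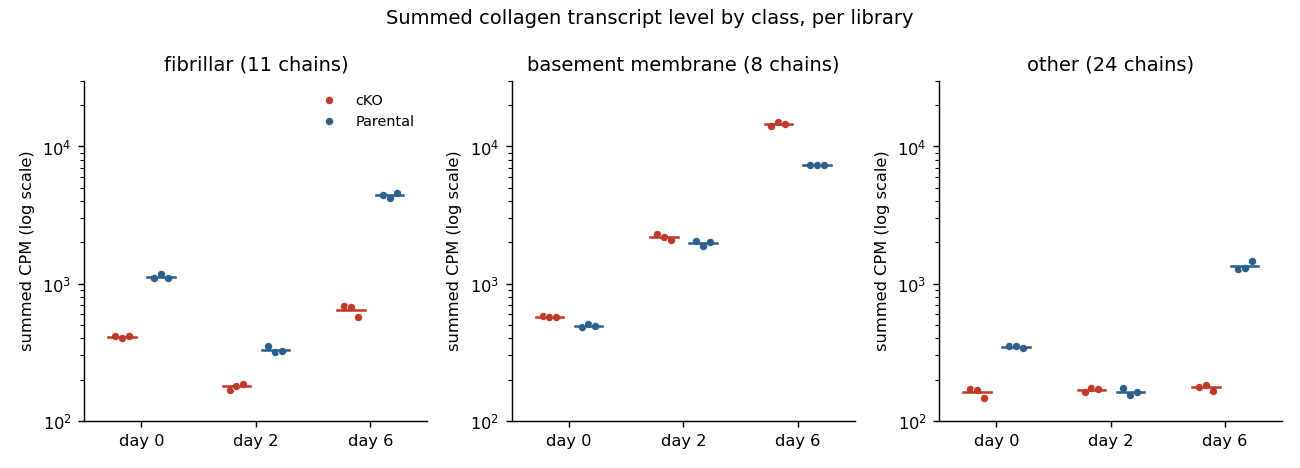
Summed CPM (log axis) of the 11 fibrillar, 8 basement membrane and 24 other chains in each library (points) with group means (bars), cKO left of Parental at each day. At day 6 the cKO libraries lie below the Parental ones in the fibrillar and other panels and above them in the basement membrane panel.

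At day 6 the lines differed more in the make-up of their collagen transcripts than in the total. All 43 chains took 1.35 to 1.45% of the counts in cKO and 1.34 to 1.41% in Parental libraries at that day, ranges that overlap. After TMM scaling they summed to 14888, 16019 and 15375 CPM in cKO and 13016, 12879.5 and 13393 CPM in Parental libraries, which do not overlap. Without Col4a1 and Col4a2 the sums were 996 ± 86.2 CPM in cKO and 6369 ± 291 CPM in Parental cells. Col4a1 and Col4a2 made up 93.5% of these collagen counts on average in cKO and 51.4% in Parental cells at day 6, and 55.8% in cKO and 21.8% in Parental cells at day 2. Fibrillar chains made up 4.19% of collagen counts in cKO and 33.8% in Parental cells at day 6.

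Type I collagen, the main fibril of skin, bone and tendon, is built from the products of Col1a1 and Col1a2. Col1a1 (ENSMUSG00000001506, GRCm38 chromosome 11, 94936224 to 94953042, plus strand) had 158, 152 and 154 CPM in cKO and 522, 561 and 538 CPM in Parental libraries at day 0, and 37.9, 46.9 and 50.01 CPM in cKO and 58.2, 55 and 56.8 CPM in Parental libraries at day 2. At day 6 it had 250.04, 247 and 198 CPM in cKO and 2109, 1941 and 2064 CPM in Parental libraries. Each cKO library lay below each Parental one of its day, widely at days 0 and 6 and narrowly at day 2. The log2 fold changes were -1.80 ± 0.08 (adjusted p = 5.52e-14), -0.34 ± 0.09 (adjusted p = 0.00252) and -3.14 ± 0.08 (adjusted p = 4.49e-19) at days 0, 2 and 6. The day 2 difference is of the size of the chromosome 11 median at that day, -0.37.

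Col1a2, on chromosome 6, had 60.2, 57.5 and 59.5 CPM in cKO and 201, 218 and 202 CPM in Parental libraries at day 0. It had 15, 19.5 and 18.9 CPM in cKO and 80.4, 72.8 and 72.3 CPM in Parental libraries at day 2, and 63, 63.5 and 52.9 CPM in cKO and 675, 676 and 729.6 CPM in Parental libraries at day 6. The groups were far apart at all 3 days, and the cKO values at day 6 overlapped those of cKO day 0, whereas the Parental level was the highest of its series. Its log2 fold changes were -1.81 ± 0.07, -2.08 ± 0.08 and -3.53 ± 0.07 (adjusted p = 6.31e-31 for the last).

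Col3a1, which encodes the type III fibrils of vessels and skin, was lowest at day 2 and highest at day 6 in both lines. Its levels were 20.8, 19.5 and 22.8 CPM in cKO and 75, 79.2 and 69.5 CPM in Parental libraries at day 0, and 4.12, 4.55 and 5.01 CPM in cKO and 6.42, 7.93 and 5.58 CPM in Parental libraries at day 2. They were 181, 173 and 143 CPM in cKO and 1103, 1097 and 1211 CPM in Parental libraries at day 6. The groups did not overlap at any day, and the gap was smallest at day 2. Its log2 fold changes were -1.82 ± 0.10 (adjusted p = 1.45e-12), -0.54 ± 0.17 (adjusted p = 0.00911) and -2.78 ± 0.08 (adjusted p = 1.6e-18).

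**Figure D3:**
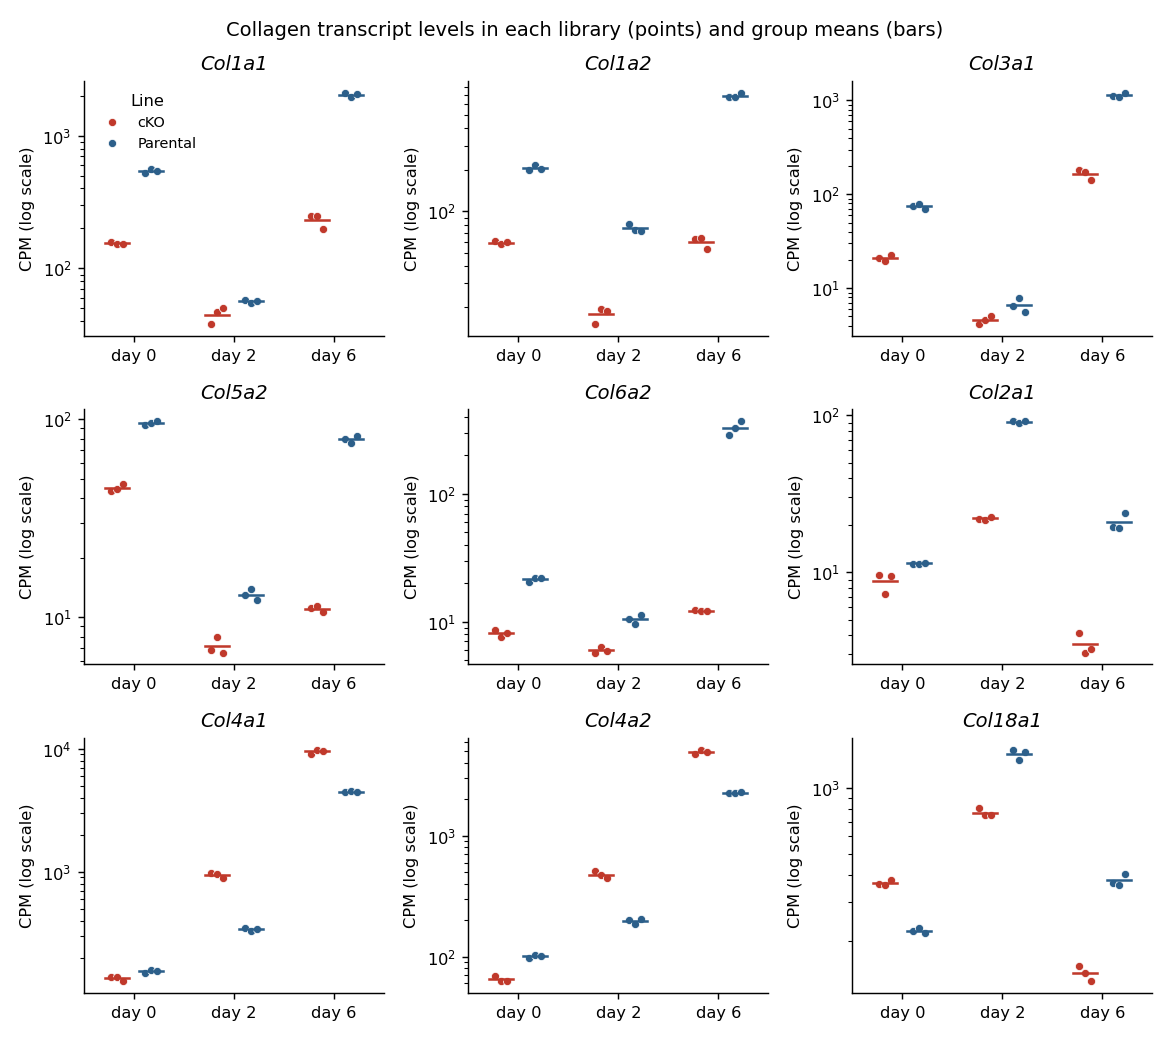
CPM (log axes, which differ between panels) of 9 collagen chains in each library (points) with group means (bars), cKO left of Parental at days 0, 2 and 6. The cKO libraries lie below the Parental ones at day 6 for the fibrillar and type VI chains and for Col18a1, and above them at days 2 and 6 for Col4a1 and Col4a2.

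The Col3a1 promoter is shown because it held the octamer that Oct1 and its POU relatives recognise. RefSeq promoter windows of 300 bases (250 before to 50 after the start, GRCm38.p6) matched 34 of the 43 chains with 37 windows. ATGCAAAT, searched on both strands, was in 570 of all 32851 windows (1.74%) and in 2 of the 37 collagen windows, those of Col3a1 (148 bases before the start) and Col25a1 (167 bases before it). GTCTAGAC, a palindrome bound by Smad proteins, was in 0.213% of all windows and in none of the 37. A match or its absence in this window is a description of letters and not evidence of binding. In the window below (chr1:45311288-45311587, plus strand, 5′ to 3′), capitals mark the octamer.
Col3a1 promoter: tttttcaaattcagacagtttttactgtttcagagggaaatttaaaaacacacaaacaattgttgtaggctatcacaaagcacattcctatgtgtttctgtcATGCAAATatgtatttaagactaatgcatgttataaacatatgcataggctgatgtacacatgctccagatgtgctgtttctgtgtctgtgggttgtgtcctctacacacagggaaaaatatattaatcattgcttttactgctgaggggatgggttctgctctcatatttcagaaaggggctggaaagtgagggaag

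Type V chains join type I and III fibrils and set their diameter. Of these chains Col5a1 and Col5a2 were lower in cKO cells, and Col5a3 was higher. Col5a1 had 82.3, 79.8 and 67.4 CPM in cKO and 345, 309.6 and 343 CPM in Parental libraries at day 6, and Col5a2 had 11.2, 11.4 and 10.6 CPM in cKO and 79.6, 75.8 and 82.8 CPM in Parental libraries. Both were also lower in cKO cells at days 0 and 2, with log2 fold changes of -1.25 ± 0.07 and -0.61 ± 0.08 for Col5a1 and -1.09 ± 0.06 and -0.86 ± 0.09 for Col5a2. At day 6 the log2 fold changes were -2.12 ± 0.07 (adjusted p = 2.08e-21) and -2.84 ± 0.07 (adjusted p = 1.34e-30). Col5a1 shares 99 exonic bases with 2810430I11Rik on the other strand, and reads there cannot be told apart without strand information.

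Col5a3, a further type V chain, went the other way. It had 47.6, 45.3 and 47.2 CPM in cKO and 24.3, 25.5 and 23.3 CPM in Parental libraries at day 0. It had 33, 31 and 31.4 CPM in cKO and 8.09, 5.51 and 6.78 CPM in Parental libraries at day 2, and 17.2, 15.2 and 18.2 CPM in cKO and 5.12, 5.29 and 5.8 CPM in Parental libraries at day 6. Every cKO library was above every Parental one of its day, and the Parental values of days 2 and 6 overlapped each other. Its log2 fold changes were 0.94 ± 0.08, 2.22 ± 0.09 and 1.64 ± 0.11 (adjusted p = 2.89e-13, 3.3e-22 and 5.97e-17).

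Among the cartilage fibril chains, Col2a1 (type II) had its peak at day 2. It had 9.62, 7.29 and 9.54 CPM in cKO and 11.4, 11.3 and 11.5 CPM in Parental libraries at day 0, 21.9, 21.6 and 22.7 CPM in cKO and 92, 88.8 and 91.9 CPM in Parental libraries at day 2, and 4.11, 3.07 and 3.24 CPM in cKO and 19.5, 19.3 and 23.8 CPM in Parental libraries at day 6. The lines were close at day 0 and clearly separate at days 2 and 6, with the cKO lower. The later log2 fold changes were -2.04 ± 0.07 and -2.58 ± 0.11 (adjusted p = 1.37e-24 and 3.31e-22). The day 0 call (-0.36 ± 0.11, adjusted p = 0.00557) was lost without cKO replicate 2, at -0.25 and an adjusted p of 0.0698. Col11a1, whose type XI chain nucleates cartilage fibrils, had 15.2, 15.6 and 14.3 CPM in cKO and 74.1, 71.4 and 74.9 CPM in Parental libraries at day 6, a log2 fold change of -2.28 ± 0.08 (adjusted p = 1.11e-24).

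The minor fibrillar chains of types XXIV and XXVII differed from each other. Col24a1 had 1.25, 1.04 and 0.826 CPM in cKO and 8.26, 8.77 and 9.3 CPM in Parental libraries at day 6 (-3.06 ± 0.18, adjusted p = 2.51e-18), and was lower at day 2 as well (-2.27 ± 0.25, adjusted p = 3.32e-10). At day 0 its cKO libraries held 1, 2 and 0 counts and its Parental libraries 4, 4 and 5, and its call was lost in 7 of the alternatives. Col27a1 had 58.9, 70.5 and 63.2 CPM in cKO and 38.1, 36.3 and 40.1 CPM in Parental libraries at day 6. It was lower in cKO cells at days 0 and 2 (-0.93 ± 0.16 and -0.42 ± 0.13) and higher at day 6 (0.75 ± 0.08, adjusted p = 3.56e-11), with no overlap at any day.

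The chains of the common type IV network rose in each step in both lines and were higher in cKO cells at days 2 and 6. Col4a1 (ENSMUSG00000031502, GRCm38 chromosome 8, 11198423 to 11312826, minus strand) had 139.8, 141 and 129 CPM in cKO and 151, 159.9 and 156 CPM in Parental libraries at day 0. It had 973, 968 and 889 CPM in cKO and 348, 333 and 345 CPM in Parental libraries at day 2, and 9087, 9821 and 9515 CPM in cKO and 4434, 4495 and 4430.1 CPM in Parental libraries at day 6. The cKO libraries were just below the Parental ones at day 0 and well above them at days 2 and 6. Its log2 fold changes were -0.19 ± 0.05 (adjusted p = 0.00151), 1.46 ± 0.05 (adjusted p = 2.51e-25) and 1.09 ± 0.05 (adjusted p = 1.37e-22).

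Col4a2, whose product joins that of Col4a1 in the same trimer, had 69.4, 62.9 and 62.5 CPM in cKO and 97.3, 103 and 100.3 CPM in Parental libraries at day 0. It had 506, 477 and 448 CPM in cKO and 201, 188 and 205 CPM in Parental libraries at day 2, and 4753, 5155 and 4964 CPM in cKO and 2268, 2275 and 2279.7 CPM in Parental libraries at day 6. The groups again did not overlap, lower in cKO at day 0 and higher after it. The log2 fold changes were -0.63 ± 0.06, 1.27 ± 0.05 and 1.12 ± 0.05 (adjusted p = 3.89e-12, 1.08e-22 and 2.28e-22). Of the 12 parietal endoderm markers, 6 were called higher and 3 lower in cKO cells at day 2 (all genes, 33.7% and 33.6%). At day 6, 9 were higher and 3 lower (36.7% and 37.8%), with a median log2 fold change of 0.64. The visceral endoderm list had 7 of 8 higher and 1 lower at day 6 (median 1.13), and 2 and 2 at day 2. The endothelial list had 6 of 7 higher and 1 lower at day 6 (median 1.28), and 2 and 4 at day 2. The part of these lists in the type IV result was not tested.

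Col4a1 and Col4a2 lie head to head, and their annotated gene bodies overlap by 22 bases at their starts. Their promoter windows are shown because the genes share this stretch and were both called higher at days 2 and 6. The windows have 78 bases in common. Capitals mark CCAAT boxes and GC boxes (GGGCGG) on either strand, which were in 37.4% and 35.7% of all windows and in 13 and 23 of the 37 collagen windows. Both are written 5′ to 3′ on the strand of their gene, Col4a1 at chr8:11312777-11313076, minus strand and Col4a2 at chr8:11312555-11312854, plus strand (RefSeq, GRCm38.p6).
Col4a1 promoter: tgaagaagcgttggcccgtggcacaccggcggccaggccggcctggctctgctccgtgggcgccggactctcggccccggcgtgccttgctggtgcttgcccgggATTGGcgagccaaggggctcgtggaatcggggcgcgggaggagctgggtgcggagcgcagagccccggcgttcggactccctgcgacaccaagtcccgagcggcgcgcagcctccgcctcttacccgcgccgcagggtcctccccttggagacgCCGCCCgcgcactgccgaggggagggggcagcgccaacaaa
Col4a2 promoter: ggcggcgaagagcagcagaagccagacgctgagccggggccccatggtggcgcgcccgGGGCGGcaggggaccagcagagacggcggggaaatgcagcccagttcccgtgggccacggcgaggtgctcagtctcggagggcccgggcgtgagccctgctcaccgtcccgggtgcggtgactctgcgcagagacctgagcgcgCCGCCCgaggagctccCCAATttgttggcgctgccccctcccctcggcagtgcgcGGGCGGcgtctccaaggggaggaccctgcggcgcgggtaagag

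The X-linked type IV chains, which form networks of more restricted distribution, behaved unlike Col4a1 and Col4a2. Col4a5 had 27.2, 25.9 and 22.4 CPM in cKO and 166, 162 and 178 CPM in Parental libraries at day 6, and Col4a6 had 3.33, 3.94 and 2.67 CPM in cKO and 32.3, 30.4 and 36.2 CPM in Parental libraries. Their log2 fold changes were -1.31 ± 0.12, -1.55 ± 0.13 and -2.74 ± 0.07 for Col4a5 and -1.32 ± 0.41, -1.63 ± 0.37 and -3.30 ± 0.13 for Col4a6 at days 0, 2 and 6, each called lower. These genes also lie head to head, with 1308 bases between their starts. Col4a4 was low, with 1.01, 0.984 and 0.699 CPM in cKO and 1.89, 2.18 and 3.03 CPM in Parental libraries at day 6 (-1.38 ± 0.28, adjusted p = 3.76e-05) and no count in either line at day 0.

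The multiplexins Col15a1 and Col18a1, proteoglycans of the basement membrane zone, had unlike courses. Col18a1 had 363, 359.9 and 378 CPM in cKO and 223, 229 and 217 CPM in Parental libraries at day 0, and 811, 751 and 747 CPM in cKO and 1492, 1335 and 1460.3 CPM in Parental libraries at day 2. At day 6 it had 155, 144 and 131 CPM in cKO and 366, 361 and 406 CPM in Parental libraries. It was higher in every cKO library at day 0 and lower in every cKO library at days 2 and 6, and peaked at day 2 in both lines. The log2 fold changes were 0.72 ± 0.06, -0.89 ± 0.05 and -1.40 ± 0.06 (adjusted p = 8.58e-14, 2.68e-17 and 2.3e-23). Col15a1 had 1.43, 1.62 and 1.27 CPM in cKO and 15.8, 16.8 and 19.7 CPM in Parental libraries at day 6, a log2 fold change of -3.59 ± 0.15 (adjusted p = 9.29e-23). At day 0 its cKO libraries held 1, 1 and 3 counts and its Parental libraries 3, 7 and 10. Its call as lower at that day was lost on leaving out cKO replicate 1 or 2 or Parental replicate 3 (-1.48, -1.50 and -1.27).

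Type VI beaded filaments, which link cells to the surrounding matrix, were much lower in cKO cells at day 6. Col6a1 had 30.1, 30.6 and 23.8 CPM in cKO and 413, 448 and 516 CPM in Parental libraries, and Col6a2 had 12.3, 12.2 and 12 CPM in cKO and 290.2, 325 and 370.3 CPM in Parental libraries at that day. At day 0, Col6a1 had 13.2, 14.3 and 13.9 CPM in cKO and 34.2, 37.4 and 34.3 CPM in Parental libraries, and Col6a2 had 8.65, 7.53 and 8.16 CPM in cKO and 20.6, 22 and 22 CPM in Parental libraries. At day 2, Col6a1 had 7.8, 7 and 7.76 CPM in cKO and 11.2, 10.3 and 11 CPM in Parental libraries, and Col6a2 had 5.7, 6.3 and 5.88 CPM in cKO and 10.6, 9.65 and 11.4 CPM in Parental libraries. The lines were close but did not overlap at day 2, and at day 6 no cKO library came near the lowest Parental one. The log2 fold changes at days 0, 2 and 6 were -1.36 ± 0.10, -0.53 ± 0.13 and -4.02 ± 0.08 for Col6a1 and -1.41 ± 0.10, -0.82 ± 0.12 and -4.75 ± 0.08 for Col6a2, all called (adjusted p = 3.53e-27 and 3.18e-35 at day 6). Col6a3, whose long chain completes the classical filament, had 5, 4.92 and 4.07 CPM in cKO and 28.7, 32.8 and 32.3 CPM in Parental libraries at day 6 (-2.74 ± 0.11).

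Col6a5, which encodes an alternative long chain of type VI, was highest at day 2 in both lines. It had 0.301, 0.549 and 0.376 CPM in cKO and 1.5, 1.41 and 1.24 CPM in Parental libraries at day 0, and 36.7, 38.4 and 36.3 CPM in cKO and 15.2, 15.7 and 13.9 CPM in Parental libraries at day 2. At day 6 it had 0 counts in each cKO library and 4, 8 and 5 counts in the Parental libraries. It was lower in cKO cells at day 0, higher at day 2 and at 0 at day 6, with log2 fold changes of -1.75 ± 0.33 and 1.32 ± 0.08 at days 0 and 2 (adjusted p = 2.14e-05 and 5.13e-17). Against the floor of 3 counts over the group that a zero allows, its day 6 level in cKO cells was at least 4.82-fold lower than in Parental cells and at least 617-fold lower than in cKO cells at day 2.

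The type VIII chains, which form hexagonal lattices beneath endothelia, moved in opposite directions at day 6. Col8a1 had 5.18, 7.59 and 5.4 CPM in cKO and 1.54, 2.49 and 1.46 CPM in Parental libraries (1.73 ± 0.20, adjusted p = 3.56e-09), after 13.6, 13.9 and 11.9 CPM in cKO and 29.7, 25.6 and 26.3 CPM in Parental libraries at day 0. Col8a2 had 0.595, 0.695 and 1.14 CPM in cKO and 18.3, 20.6 and 21.5 CPM in Parental libraries (-4.63 ± 0.16, adjusted p = 3.18e-25). The lines did not overlap for either chain at day 6. At day 2, Col8a1 had 4.44, 6.01 and 5.42 CPM in cKO and 6.51, 5.96 and 4.38 CPM in Parental libraries, which overlap, and was not called (-0.09 ± 0.16, adjusted p = 0.647).

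Among the 8 FACIT chains at the surface of fibrils, 5 were called lower in cKO cells at day 6 (Col9a2, Col9a3, Col12a1, Col14a1 and Col16a1), 1 was higher (Col20a1) and 2 were not called (Col9a1 and Col22a1). Of all tested genes 36.7% were higher and 37.8% lower at that day, and 8 chains are few to set against those shares. Col12a1 had 34.9, 40.1 and 34.4 CPM in cKO and 350.4, 291 and 320.3 CPM in Parental libraries at day 6 (-3.13 ± 0.13, adjusted p = 6.91e-12). At day 0 it had 74.1, 72.9 and 48.3 CPM in cKO and 162, 159 and 161 CPM in Parental libraries, and the lowest cKO value is that of the deviating library. Col14a1 had 3.22, 3.42 and 2.16 CPM in cKO and 14.9, 14.3 and 15.2 CPM in Parental libraries at day 6 (-2.32 ± 0.14). Col9a2 was higher in cKO cells at day 2, at 25.2, 25.1 and 25 CPM in cKO and 18.8, 15.4 and 18.1 CPM in Parental libraries, and lower at days 0 and 6 (-0.65 ± 0.09, 0.52 ± 0.10 and -1.45 ± 0.22 at days 0, 2 and 6). Col20a1 was the FACIT chain that was higher in cKO cells at day 6, at 5.12, 6.43 and 7.25 CPM in cKO and 1.19, 1.71 and 1.88 CPM in Parental libraries (1.97 ± 0.22, adjusted p = 2.32e-09), and it shares 79 exonic bases with BX649560.1 on the same strand.

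The 4 membrane-spanning chains were split at days 2 and 6. At day 2 Col13a1 and Col17a1 were called higher in cKO cells and Col23a1 and Col25a1 lower. At day 6 Col17a1 and Col23a1 were called higher and Col13a1 and Col25a1 lower. Col25a1 averaged 0.857 CPM in cKO and 6.58 CPM in Parental cells at day 6. Col23a1 had 0.507, 1.05 and 1.4 CPM in cKO and 5.56, 5 and 6.13 CPM in Parental libraries at day 2 (-2.49 ± 0.22, adjusted p = 1.34e-12), and 11.3, 13.3 and 13.4 CPM in cKO and 6.87, 7.27 and 6.95 CPM in Parental libraries at day 6 (0.85 ± 0.13, adjusted p = 1.67e-07). The cKO was thus the lower line at day 2 and the higher one at day 6, on a chromosome whose median stayed at -0.37 and -0.39. Col17a1, a collagen of hemidesmosomes, had 11.7, 13.3 and 12.6 CPM in cKO and 7.28, 6.77 and 7.72 CPM in Parental libraries at day 2 and was called higher at days 2 and 6 (0.79 ± 0.12 and 1.05 ± 0.22). Col13a1 had 11.7, 9.97 and 11.2 CPM in cKO and 4.7, 4.9 and 4.43 CPM in Parental libraries at day 2 (1.22 ± 0.12, adjusted p = 7.99e-12). Col7a1, of the anchoring fibrils, had 15.1, 12.7 and 13.5 CPM in cKO and 15.4, 13.1 and 14.9 CPM in Parental libraries at day 6, which overlap, and was not called (-0.07 ± 0.09, adjusted p = 0.497).

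Levels were compared between chains only per length (CPM per kb of the annotated transcript with the longest coding sequence). At day 0 the order began with Col18a1 (65.6 ± 1.79 CPM per kb, SD, n = 3), Col1a1 (26.1 ± 0.547) and Col4a1 (20.7 ± 0.975) in cKO cells, and with Col1a1 (91.1 ± 3.29), Col18a1 (39.8 ± 1.06) and Col1a2 (38.7 ± 1.73) in Parental cells, where the ranges of Col18a1 and Col1a2 overlapped. At day 2 Col4a1 (143 ± 7.09 CPM per kb) and Col18a1 (138 ± 6.44) led in cKO cells with overlapping ranges, and Col18a1 (255 ± 14.9) led in Parental cells ahead of Col4a1 (51.7 ± 1.24). At day 6 Col4a1 led in both lines, with 1432 ± 55.8 CPM per kb in cKO and 673 ± 5.53 CPM per kb in Parental cells. Col4a2 came next, with 769 ± 31.2 CPM per kb in cKO and 353 ± 0.906 CPM per kb in Parental cells, and Col1a1 followed with 39.1 ± 4.99 CPM per kb in cKO and 344 ± 14.7 CPM per kb in Parental cells. In Parental cells the ranges of Col4a2 and Col1a1 overlapped, and in cKO cells Col1a1 was far below Col4a2.

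Chains that share a trimer kept their ratio in some groups and not in others. The ratio of Col1a1 to Col1a2 per kb was 2.36 ± 0.0267 in cKO and 2.36 ± 0.0423 in Parental cells at day 0 (SD, n = 3). At day 2 it was 2.28 ± 0.111 in cKO and 0.681 ± 0.0275 in Parental cells, and at day 6 3.49 ± 0.108 in cKO and 2.65 ± 0.145 in Parental cells. The lines overlapped at day 0 and were apart at days 2 and 6. With this transcript length, Parental day 2 was the 1 group in which Col1a2 exceeded Col1a1. The size of this ratio depends on the length used: with the union of all annotated exons, an alternative chosen after seeing the data, it was 4.79 in cKO and 1.43 in Parental cells at day 2. With that length Col1a1 exceeded Col1a2 in Parental day 2 cells too, whereas the comparison of groups is not affected. The ratio of Col4a1 to Col4a2 stayed within a narrower span, at 2.05 ± 0.115 in cKO and 1.51 ± 0.00639 in Parental cells at day 0 and 1.86 ± 0.00569 in cKO and 1.91 ± 0.0161 in Parental cells at day 6. The ratio of Col5a1 to Col5a2 was 5.44 ± 0.401 in cKO and 3.3 ± 0.102 in Parental cells at day 6, and that of Col6a1 to Col6a2 was 2.23 ± 0.278 in cKO and 1.35 ± 0.0219 in Parental cells. These ratios are descriptions and carry no test.

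**Figure D4:**
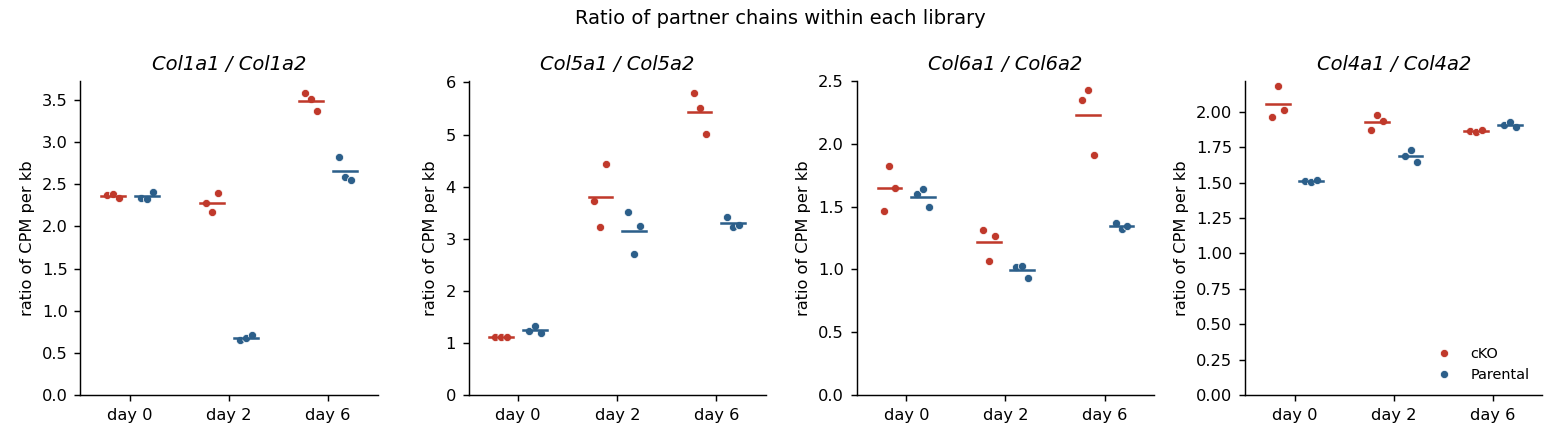
Ratio of CPM per kb between chains of one collagen type in each library (points) with group means (bars), cKO left of Parental at each day, on axes that start at 0. The ratio of Col1a1 to Col1a2 is lowest in the Parental day 2 libraries, at 0.653 to 0.708, while the ratio of Col4a1 to Col4a2 lies between 1.51 and 2.18 in all libraries.

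In both lines Col1a1, Col1a2 and Col3a1 were lowest at day 2, while Col4a1 and Col4a2 rose in each step. From day 0 to day 2, 21 chains were called higher and 12 lower in cKO cells (all genes, 41% and 35.5%; 19 and 13 without the deviating library), and 21 higher and 13 lower in Parental cells (43.2% and 37.7%). From day 2 to day 6, 22 were higher and 13 lower in cKO cells (39.6% and 41.6%), and 27 higher and 13 lower in Parental cells (42.6% and 36.9%). Across the whole course, day 6 against day 0, 25 were higher and 10 lower in cKO cells (41.4% and 40.4%), and 30 higher and 8 lower in Parental cells (45.3% and 40.2%). Of the 11 fibrillar chains, 4 were higher and 6 lower at day 2 against day 0 in cKO cells and 5 and 6 in Parental cells, and 8 were higher and 3 lower at day 6 against day 2 in each line. Over the last step the median of the 40 chains was 0.93 in cKO and 2.26 in Parental cells. Col3a1 had the steepest rise of the 40 tested chains in that step, with log2 fold changes of 5.18 ± 0.12 in cKO and 7.42 ± 0.11 in Parental cells. Col4a1 rose by 2.79 ± 0.05 in cKO and 1.14 ± 0.05 in Parental cells from day 0 to day 2, and by 3.33 ± 0.05 in cKO and 3.70 ± 0.05 in Parental cells from day 2 to day 6.

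The difference between the lines in each step was tested as an interaction, the change in cKO cells minus that in Parental cells. From day 0 to day 2, 17 chains were called higher and 6 lower (all genes, 30.1% and 26.9%), and without the deviating cKO day 0 library 17 higher and 4 lower. Col4a1 and Col4a2 had interactions of 1.65 ± 0.07 and 1.90 ± 0.08 (adjusted p = 1.6e-21 and 4.15e-22), with a larger rise in cKO cells. Col1a1 had 1.47 ± 0.12 (adjusted p = 1.05e-09) and Col3a1 1.28 ± 0.21 (adjusted p = 1.9e-05), with a smaller fall in cKO cells, where day 0 levels were lower. From day 2 to day 6, 6 chains were called higher and 26 lower (31.5% and 32%). In this step Col6a2 had -3.94 ± 0.16, Col6a1 -3.49 ± 0.16, Col1a1 -2.80 ± 0.12 and Col3a1 -2.24 ± 0.20 (adjusted p = 1.14e-22, 1.35e-17, 8.79e-15 and 2.95e-09), with a smaller rise in cKO cells. The interaction of Col4a1 was -0.37 ± 0.07 (adjusted p = 5.08e-06) and that of Col4a2 was not called (-0.14 ± 0.07, adjusted p = 0.0674). These comparisons share their day 2 libraries.

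Genes that fold and modify collagen in the endoplasmic reticulum moved in both directions. In cKO cells 7 of 20 were higher and 8 lower at day 0, 11 higher and 5 lower at day 2, and 13 higher and 7 lower at day 6. The all-gene shares, higher and lower, were 26.4% and 27% at day 0, 33.7% and 33.6% at day 2, and 36.7% and 37.8% at day 6, so the share of this list that was lower at day 6 is near that of all genes. Its median log2 fold changes were -0.09, 0.38 and 0.18. Serpinh1, the collagen chaperone HSP47, had 1924, 1926 and 1925 CPM in cKO and 1721, 1728 and 1703 CPM in Parental libraries at day 6 (0.16 ± 0.05, and -0.040 with library sizes alone). P4ha1, a prolyl hydroxylase subunit, had 735, 739.8 and 727 CPM in cKO and 396, 427 and 394 CPM in Parental libraries (0.85 ± 0.04, adjusted p = 6.67e-20), and Plod2, a lysyl hydroxylase, had 852, 912 and 856 CPM in cKO and 474, 508 and 472 CPM in Parental libraries (0.85 ± 0.05). P4ha1 and Plod2 were lower in cKO cells at day 0 (-1.14 ± 0.05 and -0.49 ± 0.05) and higher at days 2 and 6. Among the decreases of this list at day 6 were Fkbp10, a collagen prolyl isomerase, with 33.9, 31.4 and 26.9 CPM in cKO and 247, 262 and 260.4 CPM in Parental libraries (-3.06 ± 0.06, adjusted p = 3.22e-32), Fkbp14 (-2.47 ± 0.09) and P3h3 (-2.42 ± 0.08). Crtap and Tmem38b were higher at day 6 (1.08 ± 0.06 and 1.46 ± 0.07).

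Genes that trim and cross-link fibrils outside the cell included more that were lower than higher at each day. Of 14, of which 13 were tested, 1 was higher and 7 lower in cKO cells at day 0, 3 higher and 9 lower at day 2, and 1 higher and 12 lower at day 6, when 27%, 33.6% and 37.8% of all tested genes were lower at days 0, 2 and 6. The median log2 fold changes of the list were -0.68, -0.57 and -1.66. Loxl1, a cross-linking oxidase, had 10.1, 7.76 and 7.94 CPM in cKO and 106, 106 and 102 CPM in Parental libraries at day 6 (-3.61 ± 0.08, adjusted p = 2.29e-31). Lox, a related oxidase, was highest at day 0, with 94, 94 and 85.3 CPM in cKO and 244, 241 and 238 CPM in Parental libraries (-1.40 ± 0.06, adjusted p = 7.63e-21). The procollagen proteinases Bmp1 (-1.66 ± 0.06) and Adamts2 (-2.83 ± 0.09) and the enhancer Pcolce (-2.95 ± 0.09) were lower at day 6. Pxdn, the peroxidase that cross-links type IV collagen, was also lower, with 231, 239.8 and 235 CPM in cKO and 529, 521 and 534 CPM in Parental libraries at day 6 (-1.17 ± 0.05, adjusted p = 3.15e-22), opposite to Col4a1 and Col4a2.

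Receptors and proteases for collagen were mixed. Of 9 receptors, 8 of them tested, 2 were called higher and 4 called lower at day 0, 1 higher and 6 lower at day 2, and 2 higher and 5 lower at day 6. The receptor called higher at day 2 was Itgb1. Its call was lost with DESeq2 size factors (0.078), without the filter (0.093) and on leaving out some single libraries. Its sign changed with library sizes alone (-0.076). The all-gene shares called higher and lower were 26.4% and 27% at day 0, 33.7% and 33.6% at day 2, and 36.7% and 37.8% at day 6. With so few genes, the count higher at day 0 is near the share of all genes. Ddr2, a kinase receptor for fibrillar collagen, had 6.97, 5.96 and 4.32 CPM in cKO and 62.8, 62.5 and 64.4 CPM in Parental libraries at day 6 (-3.45 ± 0.10, adjusted p = 7.84e-26). Mrc2, which takes up collagen fragments, had a log2 fold change of -3.19 ± 0.06 and Itga1, an integrin subunit that binds type IV collagen, one of -1.57 ± 0.14. Of 6 collagen-cleaving proteases, 4 of them tested, 2 were higher and none lower at day 0 by the edgeR test (the other pair was not called, and the call of Mmp9 was lost in 5 alternatives), 2 were higher and 1 lower at day 2, and 1 was higher and 2 lower at day 6, too few to set against those shares. Mmp2 had 54.7, 50.8 and 37.4 CPM in cKO and 844, 822 and 833 CPM in Parental libraries at day 6 (-4.12 ± 0.08), and Mmp9 had 22.9, 22.2 and 22.7 CPM in cKO and 3.13, 2.75 and 1.93 CPM in Parental libraries (3.11 ± 0.12). These gelatinases thus differed between the lines in opposite directions.

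**Figure D5:**
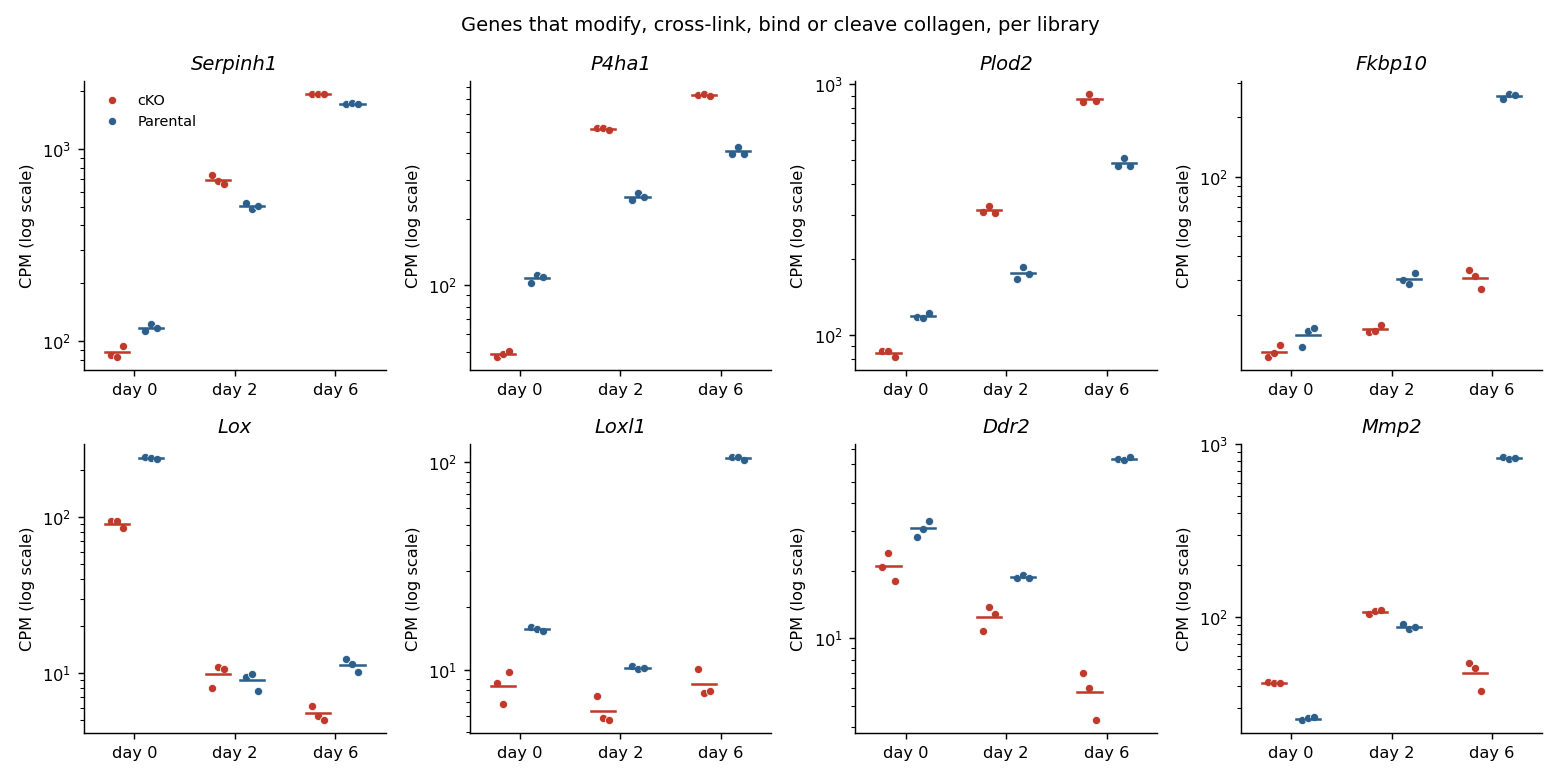
CPM (log axes, which differ between panels) of 8 genes whose products modify, cross-link, bind or cleave collagen, in each library (points) with group means (bars), cKO left of Parental at days 0, 2 and 6. At day 6 P4ha1 and Plod2 are higher in the cKO libraries, and Fkbp10, Lox, Loxl1, Ddr2 and Mmp2 are lower.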

How the data were processed

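The deposited values are whole-number counts per Ensembl gene, raw and not normalized by the authors, for 18 libraries of total RNA in 1 table. Per the submitters' processing notes, Novoalign, DESeq2 1.10.0 and the builds mm10 and GRCm38 were involved. The counter, its strand setting and its handling of multiply matching reads were not given in the sources used here, so bases shared by overlapping genes are uncertain. Libraries were placed in 6 groups of 3 by genotype and day per the labels. Collagen members were taken by symbol. The members, classes and lists were chosen with earlier results of these data known.

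All 18 libraries entered 1 edgeR 4.0.16 quasi-likelihood fit (R 4.3.3, robust, TMM factors), checked on simulated data, after filterByExpr (minimum count 10, minimum total 15) left 18352 genes. The simulated data had few changed genes, equally many each way, and a fixed spread, and only genes with high counts were scored. The check therefore does not cover genes with low counts or data in which as many genes change as here. P-values were adjusted by Benjamini-Hochberg over these genes within each of 11 comparisons. Per-library values were planned for fixed chains and the 3 strongest called chains each way per genotype comparison. Other chains were named, some of them with per-library values, after their values were seen. Per-length levels used GENCODE vM21 transcripts and promoters RefSeq GRCm38.p6. A zero allows up to 3 counts. Alternatives were DESeq2 1.42.0 and its size factors, library sizes alone, no filter, only the compared libraries, and each library left out. Total counts ran from 13694126 to 19296966 per library. The floor covers counting error only, whereas SE and SD include the spread between libraries.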

Additional observations from a re-analysis of the deposited data

Results flagged for a closer look

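This list is limited to a set, the fixed chains and the 3 strongest called chains each way per genotype comparison. Of that set, the following had a change between days that differed between the lines by the edgeR interaction test. Values are the log2 change in cKO minus that in Parental cells. From day 0 to day 2 the interaction was 1.90 ± 0.08 for Col4a2, 1.65 ± 0.07 for Col4a1, 1.47 ± 0.12 for Col1a1, 1.28 ± 0.21 for Col3a1, 1.28 ± 0.12 for Col5a3 and 0.64 ± 0.11 for Col5a1. It was 3.07 ± 0.32 for Col6a5, 0.83 ± 0.16 for Col6a1, 0.59 ± 0.16 for Col6a2 and 0.97 ± 0.20 for Col8a1. Outside the set, Col9a2, Col9a3, Col12a1, Col13a1, Col16a1, Col26a1 and Col27a1 were also called higher in that step, and Col9a1 lower. Negative interactions in that step were -2.77 ± 0.81 for Col8a2, -1.68 ± 0.13 for Col2a1, -1.61 ± 0.08 for Col18a1, -1.13 ± 0.46 for Col23a1 and -0.27 ± 0.10 for Col1a2. The adjusted p was 0.0342 for Col23a1 and 0.0238 for Col1a2. The call of Col1a2 was lost on leaving out any 1 of 4 libraries, cKO day 0 replicate 3, cKO day 2 replicate 1 or Parental day 0 replicate 1 or replicate 3 (-0.28, -0.17, -0.25 and -0.25). The call of Col23a1 was lost on leaving out any 1 of 5, cKO day 0 replicate 2 or 3, cKO day 2 replicate 1 or Parental day 0 replicate 2 or 3 (-0.86, -1.13, -0.84, -1.03 and -0.96), and that of Col8a2 without cKO day 0 replicate 3 (-2.32).

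From day 2 to day 6 positive interactions in the set were 3.34 ± 0.25 for Col23a1, 2.22 ± 0.32 for Col20a1 and 1.82 ± 0.26 for Col8a1. Outside it, Col7a1, Col22a1 and the fibrillar chain Col27a1 (1.17) were also called higher. The type VI chains had -3.94 ± 0.16 for Col6a2 and -3.49 ± 0.16 for Col6a1, and Col8a2 had -3.21 ± 0.30. Among fibrillar chains of the set the values were -2.80 ± 0.12 for Col1a1, -2.24 ± 0.20 for Col3a1, -1.98 ± 0.12 for Col5a2, -1.51 ± 0.10 for Col5a1, -1.46 ± 0.10 for Col1a2, -1.24 ± 0.15 for Col11a1, -0.58 ± 0.15 for Col5a3 and -0.54 ± 0.14 for Col2a1. Among basement membrane chains of the set they were -1.68 ± 0.48 for Col4a6, -1.18 ± 0.16 for Col4a5, -0.51 ± 0.08 for Col18a1 and -0.37 ± 0.07 for Col4a1. Col15a1 and further chains outside the set were also called lower. Col6a5, with no count in cKO cells at day 6, is left out of this step.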

How the results depend on the processing

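The counts of collagen chains called in each direction stayed within 1.5 times the reported count in every comparison under every alternative. Leaving out single libraries gave 2 higher and 28 to 30 lower chains at day 0, 7 to 8 and 23 to 26 at day 2, and 8 and 28 to 29 at day 6. Of 3662 results for named genes under an alternative, 3580 kept their direction and their side of the threshold, 58 lost and 12 gained a call, and 12 changed sign, of which Serpinh1 at day 6 and Itgb1 at day 2 had been called. With library sizes alone Serpinh1 at day 6 was -0.040, Lox at day 2 -0.046 and Itgb1 at day 2 -0.076, and Col13a1 at day 0 was 0.0085 with DESeq2 size factors and 0.0088 with DESeq2. Leaving out 1 library at a time gave ranges that crossed 0 for 5 results that were not called: Col13a1 at day 0 (-0.15 to 0.096), Fkbp14 at day 0 (-0.017 to 0.16), Col20a1 at day 2 (-0.47 to 0.081), Col8a1 at day 2 (-0.25 to 0.017) and Col7a1 at day 6 (-0.16 to 0.028). The call of Mmp9 at day 0 was lost in 5 alternatives.

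Library sizes alone moved the median log2 fold change of all genes to -0.20 and -0.19 at days 2 and 6 and to 0.42 for day 2 against day 0 in Parental cells. That scaling changed the class sums by more than their SD as follows, in CPM: fibrillar 380 in cKO day 0 and 1051, 391 and 4628 in Parental days 0, 2 and 6, basement membrane 532 and 13234 in cKO days 0 and 6 and 462, 2345 and 7654 in Parental days 0, 2 and 6, and other chains 159 in cKO day 6 and 323 and 193 in Parental days 0 and 2. DESeq2 size factors gave fibrillar 422 in cKO day 0 and 4251 in Parental day 6, and basement membrane 591 in cKO day 0 and 7032 in Parental day 6. The cause was not tested beyond the scaling itself. No paired analysis was possible because the labels pair no libraries, and replicate numbers here only name them.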
